A study of Mus musculus with 68 samples.

Results

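Late prostate tumours of TRAMP mice that lack SPARC were compared with late prostate tumours of TRAMP mice that have it. The comparison holds the 9 arrays labelled SPARC -/- TRAMP +/- at 24 to 29 weeks (animals ST1 to ST7, ST15 and ST16) and the 7 arrays labelled TRAMP +/- at 24 to 25 weeks (animals T1 to T7), 16 of the 68 arrays of the series, chosen by genotype, age and animal code. Unless another comparison is named, every difference below is late SPARC-null TRAMP minus late TRAMP. All 22206 target probe sets of the Clariom S mouse array were used, in log2 units of the deposited values. The fit also holds early TRAMP (16 weeks), early SPARC-null TRAMP (18 to 19 weeks) and osteopontin-null TRAMP tumours (16 to 17 and 24 to 27 weeks). SPARC-null, wild-type and osteopontin-null animals without the TRAMP transgene (16 to 18 and 24 to 27 weeks) are set beside them. Both groups are labelled +/- for the TRAMP transgene, which places the SV40 T antigens under a rat probasin promoter, so that tumours arise in probasin-expressing prostate epithelium. SPARC is absent from the whole animal in the null mice, as far as the genotype label says. Each array is 1 animal. The labels give no tumour type, although the series title speaks of adenocarcinoma and neuroendocrine prostate cancer, and arrays were not divided by it.

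SPARC (secreted protein acidic and rich in cysteine, also called osteonectin) is a matricellular protein: it binds collagen and is secreted into the matrix without being one of its structural parts. It is known for its part in collagen fibril assembly and in the contact between cells and matrix, and in tumours it is often made by stromal cells. In TRAMP prostate, luminal epithelium gives rise to adenocarcinoma, and some tumours are neuroendocrine, with synaptic and chromogranin genes on and luminal secretory genes off. In bulk tissue, fewer cells of a type and less RNA per cell cannot be told apart.

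The ages of the groups overlapped little. The TRAMP animals were 24 to 25 weeks old, the SPARC-null animals ST1 to ST7 were 27 to 29 weeks old, and ST15 and ST16 were both 24 weeks old. ST15 and ST16 also stood apart from the other 7 SPARC-null arrays on the first principal component of the 16 arrays, which held 33.5% of the variance, at 51.7 and 29.3 against -23.7 to 10.3. The TRAMP array T3 lay beside them at 30.1. The separation of positive from negative control probe sets, an array quality measure given as an AUC, ran from 0.712 to 0.768 in TRAMP and from 0.715 to 0.780 in SPARC-null arrays, and it was highest in ST15 at 0.780, followed by T3 at 0.768 and ST16 at 0.761. Results below are given with and without ST15 and ST16 where they rest on them. No pair of the 16 arrays held identical values, and the highest correlation was 0.988. On the late arrays the negative controls had their median at 5.42 and their 95th percentile at 9.30, so many of the levels named below lie within their range. The number of arrays limits the precision.

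The tissue label was checked on 19 defining genes, of which 16 had a named probe set. The androgen-regulated secretory protein probasin (Pbsn) averaged 10.33 ± 1.51 (SD, n = 7) in TRAMP and 10.97 ± 0.54 (SD, n = 9) in SPARC-null tumours, and the epithelial adhesion molecule Epcam 8.03 and 8.21. The neuroendocrine markers Syp (synaptophysin) at 6.20 and 6.04 and Chga (chromogranin A) at 6.01 and 5.96 lay near the negative control median in both groups. The 6 control probe sets named for SV40 ran from 7.02 to 7.70 in TRAMP and from 7.28 to 8.02 in SPARC-null tumours. Their mean differed by 0.25, with a 2-sided exact permutation p of 0.0777 over 11440 splits of the arrays (adjusted p = 0.0777 over the 2 levels tested this way). Without T3 the difference was 0.32 (exact p = 0.0296) and without T7 it was 0.31 (exact p = 0.0362), while without ST7 it was 0.19 (exact p = 0.134). Among animals of 24 and 25 weeks it was 0.06 (exact p = 0.833).

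Sparc itself was measured by 1 probe set (TC1100002783.mm.2), and its fall was small. TRAMP tumours ran from 6.30 through a median of 6.48 to 7.21, and SPARC-null tumours from 5.77 through 6.33 to 6.52. The groups overlapped: 4 of the 9 SPARC-null tumours lay below every TRAMP tumour, and 3 of the 7 TRAMP tumours lay above every SPARC-null tumour. The means were 6.57 ± 0.32 (SD, n = 7) and 6.23 ± 0.22 (SD, n = 9), a difference of -0.34 (2-sided exact permutation p = 0.0125, adjusted p = 0.025 over the 2 levels). Among all probe sets it was not called (limma adjusted p = 0.999). Without ST15 and ST16 the difference was -0.27 (exact p = 0.0495), and with the TRAMP animals against ST15 and ST16 alone it was -0.61 (exact p = 0.0556, the smallest possible being 0.0278). The sources used here do not give which part of the transcript the probe set covers or which part is deleted. The mean of the null tumours lay above the negative control median of 5.42, but both means lay within the range of these controls. Of the negative controls, 64.1% lay below the mean of the null tumours and 69.5% below that of the TRAMP tumours. The probe set checks the labels only in part.

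Of 22206 probe sets, 2 were called at an adjusted p under 0.05 (0.00901%), both lower in SPARC-null tumours, and neither has a gene symbol in the platform annotation. The first, TC0M00000009.mm.2, has the mitochondrial chromosome in its identifier. TRAMP tumours ran from 11.33 through a median of 11.78 to 11.97, and SPARC-null tumours from 9.14 through 9.71 to 9.86. Every SPARC-null tumour lay more than 1 log2 unit below every TRAMP tumour. The difference was -2.16 (SE 0.14, 95% interval -2.45 to -1.87, limma adjusted p = 6.29e-13).

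The fall of TC0M00000009.mm.2 was of like size at the other stage and without the transgene. It was -2.19 between early SPARC-null TRAMP tumours (6 animals of 18 to 19 weeks) and early TRAMP tumours (7 of 16 weeks), and -2.29 between SPARC-null and wild-type animals without the transgene. The latter comparison held 7 SPARC-null animals of 16 to 18 weeks and 4 of 25 to 27 weeks, and 4 wild-type animals of 16 weeks and 6 of 24 weeks. Of the 26 SPARC-null arrays in these 3 comparisons, 24 lay below the lowest of the 41 arrays with SPARC, which was at 10.75. The 41 include animals null for osteopontin (OPN), with and without the transgene, which are in none of the 3 comparisons. The 2 exceptions were non-transgenic SPARC-null animals, S6 at 11.44 and S11 at 11.70. The other 8 mitochondrial probe sets differed by -0.15 to 0.39 in the late tumours, with a smallest unadjusted p of 0.282. The level thus fell at 1 of 9 probe sets with a mitochondrial identifier.

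The second, TC0100001206.mm.2, has chromosome 1 in its identifier. TRAMP tumours ran from 7.28 through a median of 11.48 to 12.21, with 6 of the 7 at 10.94 or above and T4 alone at 7.28. All SPARC-null tumours lay between 7.21 and 7.75, with a median of 7.44. T4 lay within the SPARC-null range, so the groups overlapped by that 1 array. The difference was -3.52 (SE 0.57, 95% interval -4.68 to -2.37, limma adjusted p = 0.00397). It was -3.31 in early tumours and -4.11 without the transgene. The probe set was not low in SPARC-null animals alone: 6 of the 41 arrays with SPARC lay at or below the highest SPARC-null array (8.46). All 3 late OPN-null TRAMP tumours were among them, at 7.57 to 7.93. So were T4, the lowest early OPN-null TRAMP tumour (7.36) and the lowest early OPN-null animal without the transgene (7.80). When only ST15 and ST16 stood for the SPARC-null tumours the difference was -3.51 and no longer called (adjusted p = 0.104).

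**Figure D1:**
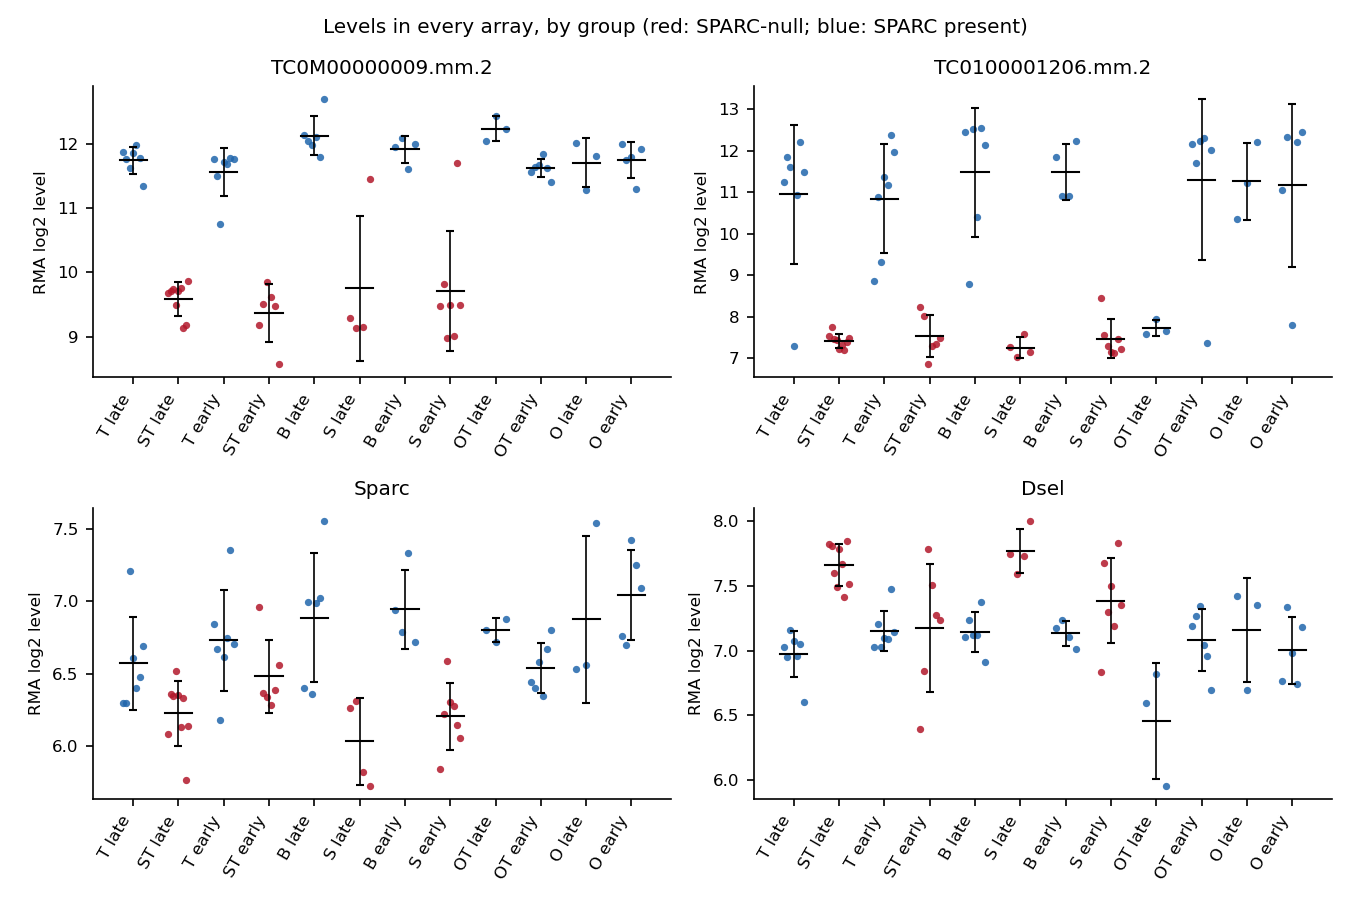
RMA log2 level of the 2 called probe sets, of Sparc and of Dsel on every array used (1 point per animal, line and bar: mean and SD), by group: T, TRAMP; ST, SPARC-null TRAMP; B, wild type and S, SPARC-null without transgene; OT and O, null for osteopontin (OPN) with and without transgene. TC0M00000009.mm.2 lies between 9.14 and 9.86 in all 9 late SPARC-null tumours and above 11 in all 7 late TRAMP tumours, while Sparc overlaps.

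Beyond these 2, no single gene was called in either direction. An unadjusted p under 0.05 was reached by 719 probe sets (3.24%), 301 of them higher (1.36%) and 418 lower (1.88%) in SPARC-null tumours. That is fewer than the 1110 that would be reached on average if no probe set differed. The 16 late arrays fitted alone gave 1645. The 719 and the intervals below rest on a spread pooled over all late and early tumour groups. The median difference over all probe sets was -0.02, and the median 95% interval reached 0.23 to either side. For 98.6% of the probe sets the interval lay within 1 log2 unit of 0, and for 86.0% within 0.5. A difference of 1 log2 unit or more was found for 10 probe sets, 3 higher and 7 lower.

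The 2 groups did not overlap at 8 probe sets (0.036%), 2 higher and 6 lower in SPARC-null tumours. Among the lower ones, beside TC0M00000009.mm.2, were Tgfbi, Zp3r, Pla2g2c and Rgcc, the last a regulator of the cell cycle known for responding to complement. The 2 higher ones were the histone gene H4c3 and Dsel. Of these 8, TC0M00000009.mm.2 alone also had groups that did not overlap in the early tumours.

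Dsel, which encodes an enzyme of the dermatan sulfate epimerase family that modifies matrix proteoglycans, was the named gene nearest to a call. TRAMP tumours ran from 6.60 through 7.03 to 7.16, and SPARC-null tumours from 7.41 through 7.67 to 7.85. All 9 SPARC-null tumours lay above all 7 TRAMP tumours. The difference was 0.69 (SE 0.14, limma adjusted p = 0.0919). Fitting the 16 late arrays alone gave a limma adjusted p of 0.00231, and Dsel was called under 6 of 31 alternative settings. Of these 6, 1 only loosened the threshold to an adjusted p under 0.1. In early tumours the difference was 0.02, and the late difference exceeded it by 0.66 (unadjusted p = 0.00233, not called). Without the transgene it was 0.44. Of the 26 SPARC-null arrays, 17 lay above the highest array with SPARC. The 26 include the 9 late ones by which Dsel was picked, and the early SPARC-null tumours ran from 6.40 to 7.79.

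The next genes by p value were not called, and their values follow as a description. Tff3, a secreted trefoil peptide of mucous epithelia, ran from 5.03 through 6.19 to 8.38 in TRAMP and from 6.76 through 7.85 to 8.98 in SPARC-null tumours. All 9 SPARC-null tumours lay above the TRAMP median, and T6 alone of the TRAMP tumours lay above the SPARC-null median. Its difference of 1.52 (SE 0.35, limma adjusted p = 0.465) was 1 of the 3 higher ones of at least 1 log2 unit, and without T6 it was 1.83 (adjusted p = 0.0195). In ST15 and ST16 alone it was 2.30 (adjusted p = 0.0357), and in early tumours it was 0.70.

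The chromosome 1 gene 3110009E18Rik differed by 0.52 (adjusted p = 0.198), and without T3 by 0.60 (adjusted p = 0.0138). Tvp23b, which encodes a Golgi membrane protein, differed by 0.44 (adjusted p = 0.443), and by 0.57 in early tumours. Cd44, the hyaluronan receptor at the cell surface, ran from 3.94 to 4.71 in TRAMP and from 4.46 to 5.06 in SPARC-null tumours, a difference of 0.44. For Cd44, 6 of the 9 SPARC-null tumours exceeded all TRAMP tumours. The remaining 5 of the 10 smallest p values on the higher side belonged to Mx2 (0.27), Pwwp2a (0.41), Ido1 (0.77), Zw10 (0.31) and Hexa (0.29), each with an adjusted p of 0.999 as for Cd44.

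On the lower side Tgfbi, a secreted matrix protein induced by TGF-beta that binds collagen and integrins, had groups that did not overlap. TRAMP tumours ran from 6.34 through 6.36 to 6.51 and SPARC-null tumours from 5.85 through 6.06 to 6.24. The difference was -0.32 (SE 0.10, adjusted p = 0.999) and it was -0.17 in early tumours. The other 9 smallest p values on the lower side belonged to 4930572O03Rik (-0.52), Afg1l (-0.39), Lrit2 (-0.33), the B-cell receptor modulator Cd72 (-0.28), the secretory vesicle GTPase Rab26 (-0.25), the homeobox gene Hoxc6 (-0.28), Gm2897 (-0.30), Jakmip1 (-0.33) and Ovgp1 (-0.29), all with an adjusted p of 0.999.

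**Figure D2:**
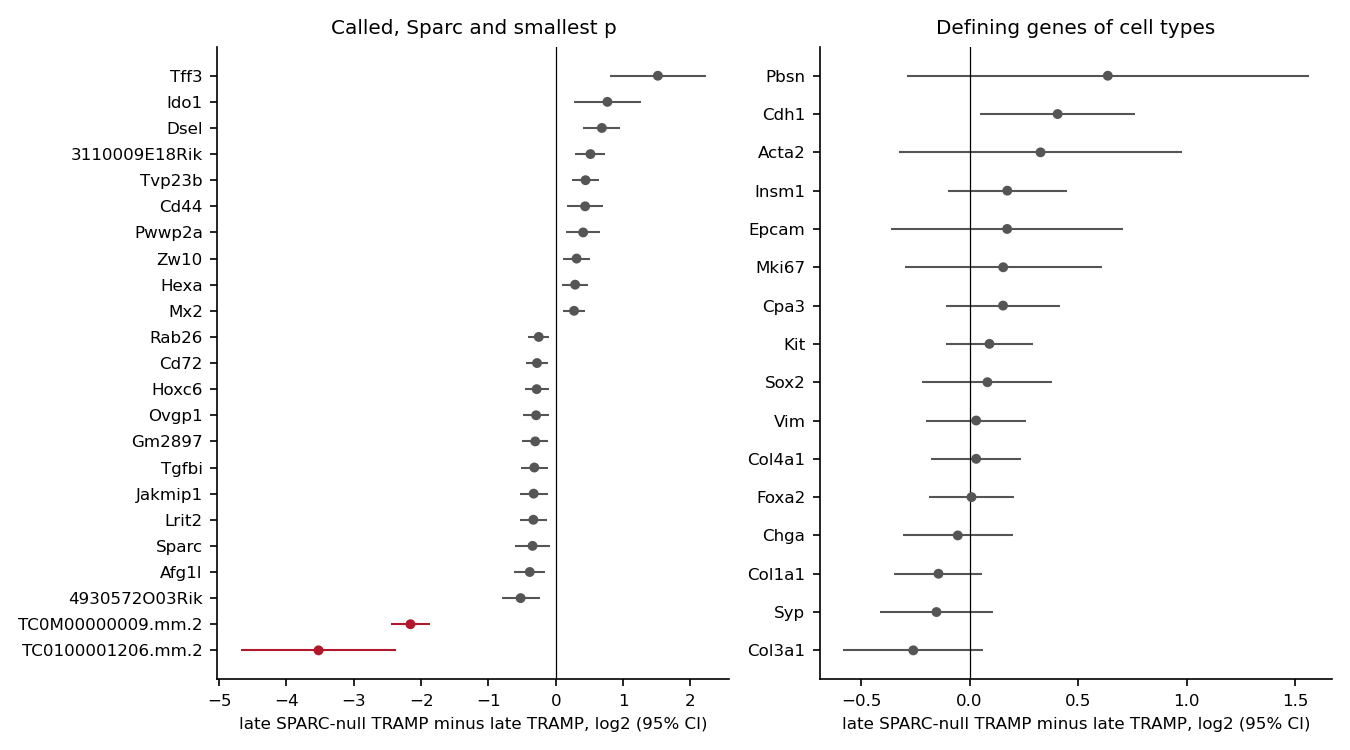
Late SPARC-null TRAMP minus late TRAMP in log2 units (points) with 95% intervals (lines) from the limma fit, for the called probe sets (red), Sparc and the smallest p values (left) and for the defining genes of cell types (right). TC0M00000009.mm.2 at -2.16 and TC0100001206.mm.2 at -3.52 are called, and the defining genes lie between -0.26 for Col3a1 and 0.64 for Pbsn.

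Ido1 (a tryptophan-degrading enzyme induced by interferon gamma) and Cxcl9 (a chemokine for activated T cells induced by the same signal) were well above the TRAMP range in the same 2 SPARC-null animals. For each gene, 6 of the 9 SPARC-null tumours lay above every TRAMP tumour. Ido1 ran from 5.54 to 5.99 in TRAMP and from 5.71 through 6.21 to 8.34 in SPARC-null tumours, with ST6 at 8.34 and ST5 at 7.73. Cxcl9 ran from 5.98 to 6.55 in TRAMP and up to 8.87 in ST6 and 7.57 in ST5. The remaining 7 SPARC-null animals had Ido1 at 6.38 or below. The differences were 0.77 for Ido1 and 0.69 for Cxcl9, with SDs of 0.91 and 0.89 among SPARC-null tumours against 0.14 and 0.20 among TRAMP tumours.

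Of 18 measured members of the interferon list, 9 were higher and 9 lower, with a median difference of 0.00 and 2 at an unadjusted p under 0.05 (Mx2 and Cxcl9). ST5 was among the 2 highest SPARC-null arrays for 13 of the 18 and ST6 for 5. The mean level of the list was highest of the 16 arrays in ST5 (0.27) and ST6 (0.21), against a highest TRAMP level of 0.08 in T3. Among 16 T and NK cell genes, ST6 was the highest SPARC-null array for 7, and among 15 macrophage and dendritic cell genes for 5. The shares of all probe sets at which ST5 or ST6 ranked so were not computed, so these counts show nothing particular to the lists. The part of infiltrating cells in the Ido1 and Cxcl9 levels was not tested.

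Across 31 gene lists 429 of 467 genes were measured, and 0 of the 429 were called (limma; 22 had an unadjusted p under 0.05, 5.13% of the list members against 3.24% of all probe sets). List medians ran from -0.15 to 0.24, beside -0.02 over all probe sets. A list is described by these counts alone.

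No gene of the SPARC family or matricellular lists was called. Of 8 SPARC family members 3 were higher and 5 lower, with a median of -0.05. The close relative Sparcl1 (also called hevin) had the widest difference at 0.54, with SDs of 0.58 and 0.55, and it was -0.62 in early tumours. Of 14 matricellular genes 5 were higher and 9 lower, and 2 had an unadjusted p under 0.05, Tgfbi and the thrombospondin Thbs4 (-0.21).

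Genes of the fibrillar collagen matrix, the structure that SPARC binds, were lower in 13 of 17 cases, with a median of -0.11. None was called, and 3 had an unadjusted p under 0.05: the collagen-binding proteoglycan Fmod (-0.31), elastin (Eln, -0.26) and fibronectin (Fn1, 0.40), which went the other way. The main fibrillar collagens Col1a1 and Col3a1 differed by -0.14 and -0.26. Collagen-processing genes were lower in 12 of 17 cases with a median of -0.04, with Bmp1, the protease that trims procollagen, at -0.16. The median of the fibrillar list was -0.06 without ST15 and ST16.

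Basement membrane genes divided 9 higher and 10 lower, with a median of 0.00. Nid1, a linker of laminin and collagen IV, was called lower in early SPARC-null tumours (-0.59, limma adjusted p = 0.0436) and differed by 0.00 in late ones. The early call was absent when the 13 early arrays were fitted alone. With single early arrays left out in turn, it remained only without T10. The late and early differences of Nid1 differed by 0.59 (unadjusted p = 0.000428, not called). Of 17 integrins and matrix receptors 12 were higher with a median of 0.10, Cd44 being the 1 with an unadjusted p under 0.05.

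Epithelial adhesion genes were higher in SPARC-null tumours in 12 of 15 cases, with a median of 0.14. Of these, 3 had an unadjusted p under 0.05: E-cadherin (Cdh1, 0.41), the tight junction claudin Cldn4 (0.40) and the membrane protease St14 (0.30). Cdh1 ran from 7.99 to 8.69 in TRAMP and from 8.25 to 9.17 in SPARC-null tumours, with the 2 highest values in ST15 (9.17) and ST16 (9.09). With array quality as a covariate the list median was 0.01, and without ST15 and ST16 it was 0.02. With age as a covariate it was 0.24, and among animals of 24 and 25 weeks 0.22.

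Androgen-regulated and luminal secretory genes were higher in 20 of 23 cases, with a median of 0.21. Luminal keratin 8 (Krt8, 0.35) and Cd24a (0.33) had an unadjusted p under 0.05. The secretory genes Msmb (0.82), Pbsn (0.64) and Pigr (0.55) had the widest differences, with an SD of 1.51 for Pbsn and 0.98 for Pigr among TRAMP tumours. For Pbsn, T4 alone (7.04) lay below every SPARC-null tumour, and the medians were 10.95 in TRAMP and 11.19 in SPARC-null tumours. The lowest TRAMP tumour was T6 for Msmb (6.27, medians 8.89 and 9.52) and for Pigr (8.30, medians 10.01 and 10.36). The list's mean level per array, centred on all 16 late arrays, ran from -0.38 through -0.21 to 0.48 in TRAMP (highest in T3) and from -0.22 through 0.09 to 0.62 in SPARC-null tumours (highest in ST15), so the groups overlapped. With quality as a covariate the list median was 0.06, and without ST15 and ST16 it was 0.13. With age as a covariate it was 0.51. Among animals of 24 and 25 weeks it was 0.63, or 0.05 with quality as a covariate as well. In early tumours it was 0.04 and without the transgene 0.30.

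Smooth muscle genes had the highest list median, at 0.24, with 10 of 13 higher and 0 at an unadjusted p under 0.05 (Acta2 0.33, Mylk 0.40). The same list had a median of -0.36 in early tumours. Its late median was 0.02 with array quality as a covariate and -0.19 among animals of 24 and 25 weeks with that covariate. Without that covariate it was 0.43 among those animals, and with age as a covariate it was 0.50. T3, ST15 and ST16, the arrays of highest quality, had mean list levels of 0.35, 0.36 and 0.08.

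Neuroendocrine genes were lower in 17 of 24 cases, with a median of -0.06 and 0 at an unadjusted p under 0.05. Syp differed by -0.15, Chga by -0.05 and Insm1, a neuroendocrine transcription factor, by 0.17. Cell cycle genes were higher in 15 of 22 cases with a median of 0.05, Mki67 at 0.15 and Top2a at 0.29. Mast cell genes, with Kit at 0.09 and Cpa3 at 0.15, had a median of 0.00, and endothelial genes were lower in 8 of 12 cases with a median of -0.04.

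Unfolded protein response genes were higher in 11 of 14 cases, with a median of 0.11. The list median was -0.04 with array quality as a covariate and -0.56 among animals of 24 and 25 weeks with that covariate. Without that covariate it was 0.12 among those animals, and with age as a covariate it was 0.31. The stress transcription factor Atf3 had an unadjusted p under 0.05 at 0.31. The TRAMP tumours were spread more widely than the SPARC-null ones, with SDs of 0.35 and 0.10 of the mean list level. Genes of tissues next to the prostate varied most between animals: the seminal vesicle list had an SD of 1.78 in its mean level among TRAMP tumours, skeletal muscle 0.80 and adipose tissue 0.53. Their part in other differences was not tested.

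**Figure D3:**
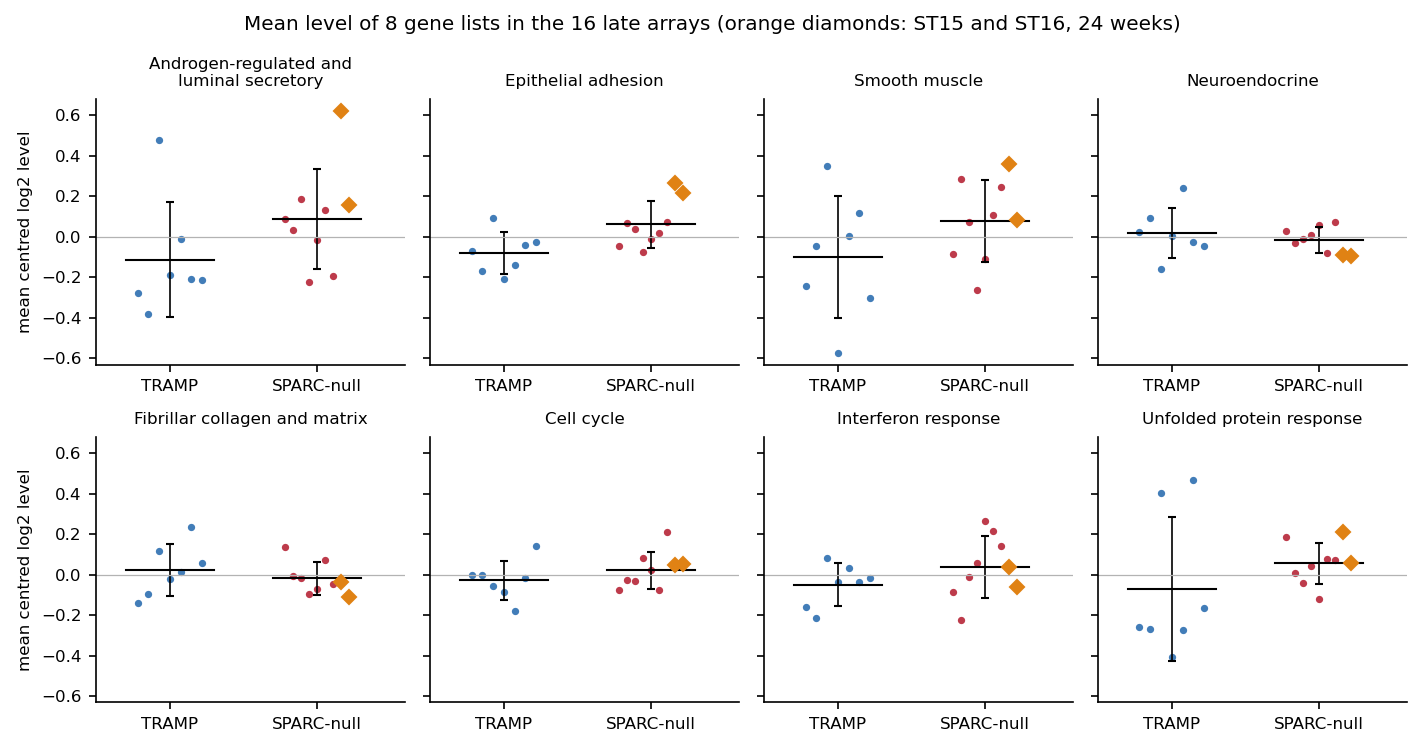
Mean level of 8 gene lists on each late array, each gene centred on its mean over the 16 arrays (log2 units; line and bar: mean and SD; orange diamonds: the 2 SPARC-null animals of 24 weeks, ST15 and ST16). The groups overlap for every list shown, and ST15 is highest for the luminal list at 0.62 and for the epithelial adhesion list at 0.27.

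Age was nearly confounded with genotype, so the comparison was also made among animals of 24 and 25 weeks, which left ST15 and ST16 against the 7 TRAMP tumours. There 146 probe sets were called (0.657%), 137 higher and 9 lower in SPARC-null tumours. The genes with the smallest p values, chosen after their values were seen, were Ublcp1, a phosphatase of the proteasome, Zfp953, the tRNA splicing subunit Tsen15, the complement regulator Cd55 and the respiratory complex I subunit Ndufa10. Ublcp1 had 6.63 in ST15 and 6.51 in ST16, against 4.48 to 5.20 in TRAMP tumours and 4.85 to 5.21 in ST1 to ST7. Cd55 had 5.81 and 5.30, against 3.52 to 3.94 in TRAMP tumours and 3.65 to 4.34 in ST1 to ST7.

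The 137 probe sets had a median difference of 1.20 in ST15 and ST16 against TRAMP, and of 0.03 in ST1 to ST7 against TRAMP. They were chosen by their difference in ST15 and ST16, so a smaller value in ST1 to ST7 follows at least in part from that choice. Among the 146, TC0M00000009.mm.2 (-2.22 and -2.14) and Tff3 (2.30 and 1.29) differed widely in both sets of animals. ST15 against ST16 was higher for 105 of the 137, and among the 7 TRAMP tumours T3 was highest for 96 (70.1%). The shares of all probe sets at which the same held were not computed, so these counts show nothing particular to the 137. ST15, T3 and ST16 were also the arrays of highest quality. With quality as a covariate 37 probe sets were called (0.167%), 30 higher and 7 lower, of which 31 were among the 146. With age in weeks as a covariate over all 38 transgenic arrays 72 were called (0.324%), 58 higher and 14 lower, 45 of them among the 146.

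Within the SPARC-null tumours, ST15 and ST16 against the 7 older animals gave 293 called probe sets (1.32%), 271 higher and 22 lower, and 219 (0.986%) with quality as a covariate. This split was chosen after the data were seen, and age, array quality and anything else that set these 2 animals apart cannot be told apart with 2 arrays. Without ST15 and ST16 the late comparison called the same 2 probe sets as with them.

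**Figure D4:**
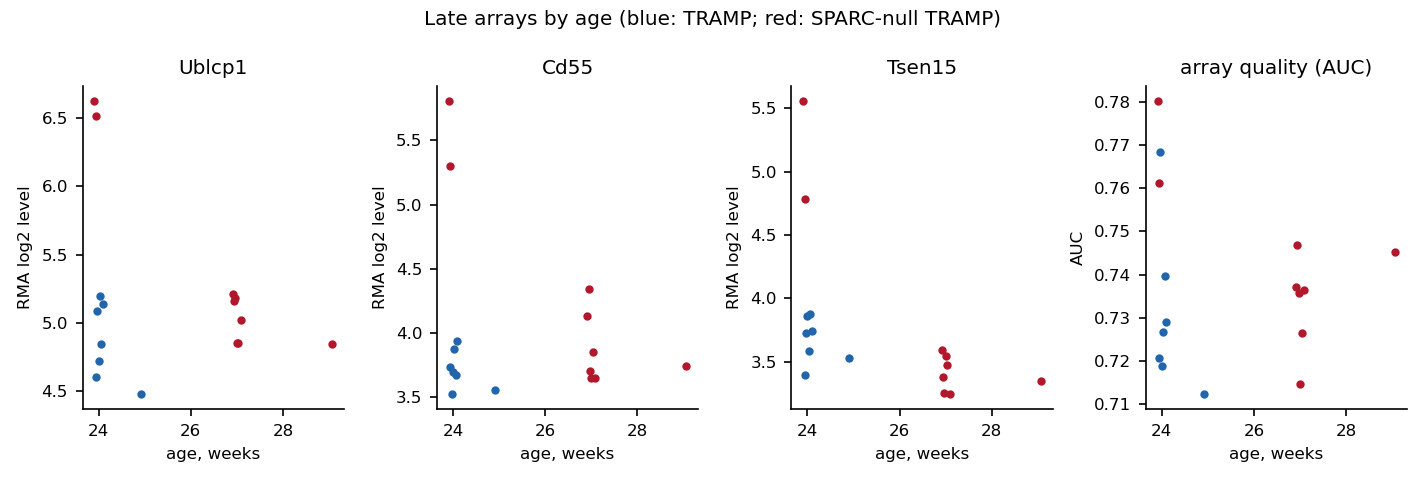
Level of Ublcp1, Cd55 and Tsen15 (RMA log2) and array quality (AUC of positive over negative control probe sets) of the 16 late arrays against age in weeks, points shifted slightly sideways to part them; blue, TRAMP; red, SPARC-null TRAMP. The 2 SPARC-null animals of 24 weeks have Ublcp1 at 6.63 and 6.51, above all 14 other arrays, and 2 of the 3 highest AUC values.

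The late differences were set beside 2 further SPARC comparisons, which share no arrays with the late one. In early tumours 4 probe sets were called (0.018%): the 2 called late, Nid1, and the zinc finger gene Zfp865, which differed by 0.45 early and by -0.11 late. The difference between the late and early effects was called for 0 probe sets (0%; limma, 858 at an unadjusted p under 0.05, smallest adjusted p 0.364). Of the 719 probe sets with a late unadjusted p under 0.05, 64.5% had the same sign in early tumours, beside 51.8% of all probe sets. Early SPARC-null animals were 18 to 19 weeks old and early TRAMP animals 16, so age and genotype cannot be told apart there either. The early count ranged from 1 to 6 when single arrays were left out, and TC0M00000009.mm.2 was in each of those counts.

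Without the transgene 50 probe sets were called between SPARC-null and wild-type animals (0.225%), 39 higher and 11 lower. The SPARC-null animals were 16 to 18 and 25 to 27 weeks old, the wild-type animals 16 and 24. Only S1, at 16 weeks, had the age of a wild-type animal, so age and genotype cannot be told apart here either. In the late tumours 5 of the 50 had the same sign and an unadjusted p under 0.05: the 2 called probe sets, Sparc (-0.80 without the transgene, -0.34 in late tumours), Fmod (-0.66 and -0.31) and the centrosomal gene Cep85 (0.33 in late tumours). The 39 higher probe sets had a median of 0.49 without the transgene and 0.07 in the late tumours, and the 11 lower ones -0.48 and -0.07. The 50 were chosen by their difference without the transgene, so smaller late values follow at least in part from that choice. Of the 719, 79.0% had the same sign without the transgene, beside 62.1% of all probe sets. The count of 50 ranged from 6 to 198 when single arrays were left out, the highest without S1 and the lowest without S5.

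**Figure D5:**
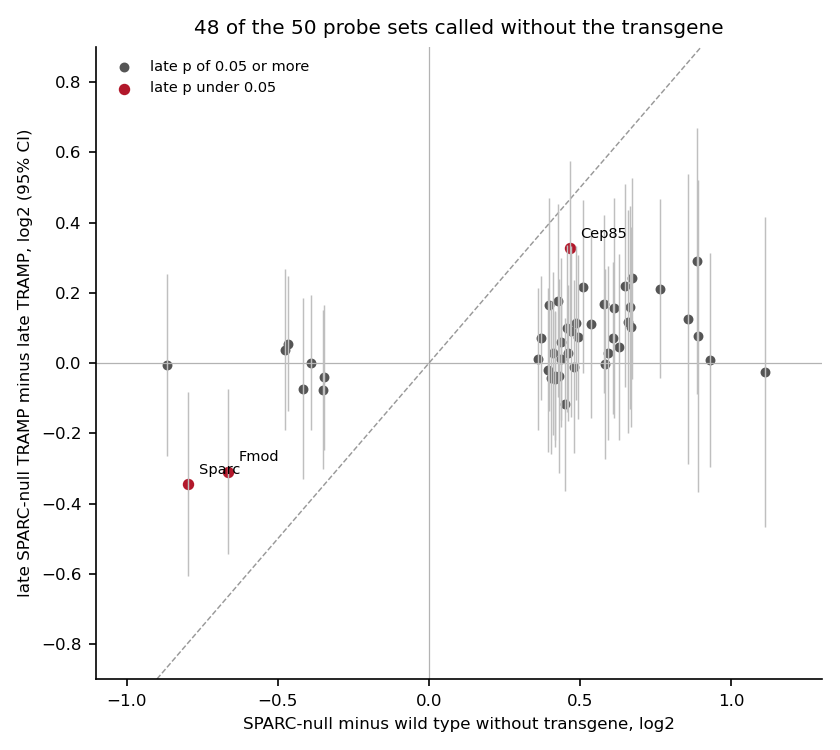
Late difference between SPARC-null TRAMP and TRAMP tumours (vertical, log2 with 95% interval) against the difference between SPARC-null and wild-type animals without the transgene (horizontal, log2), for 48 of the 50 probe sets called without the transgene; the dashed line marks equal differences. The 2 probe sets outside the axes are TC0M00000009.mm.2 (-2.29 without transgene, -2.16 late) and TC0100001206.mm.2 (-4.11 and -3.52), and most of the others lie nearer to 0 in the late tumours. Choosing the probe sets by the horizontal difference favours this.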

How the data were processed

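Total RNA of mouse samples labelled as prostate tumours was hybridised to Clariom S arrays. Per the submitters' processing notes the authors made the deposited log2 values with RMA in oligo, which quantile-normalises arrays and so assumes that most probe sets do not shift one way; the sources used here give no versions. The 6923 control probe sets stayed out of the tests, and no filter on signal was used. Differences come from lmFit and eBayes of limma 3.58.1 under R 4.3.3 (1 mean per group over the 38 transgenic arrays; 29 arrays for the comparison without transgene, with O12 left out because its genotype label and code disagree). P-values were adjusted by Benjamini-Hochberg over the 22206 probe sets, and an adjusted p under 0.05 was a call. The test was tried on simulated data. Named genes were Sparc, all called, the 10 smallest p values each way (predicted genes limited), and for each list its called members or the 3 widest differences; others named were chosen after their values were seen. The members, lists and rules were chosen with earlier results of these data known. The sources used here do not give the array's genome build, and chromosomes are those in the probe set identifiers. Each array is 1 animal. The limma p-values of the tumour comparisons use a spread between animals pooled over late and early TRAMP, SPARC-null TRAMP and OPN-null TRAMP tumours. Those of the comparison without transgene pool the non-transgenic groups in the same way. Exact permutation p-values rest on the late arrays alone. Fitted alone, the 16 late arrays gave 1645 probe sets at an unadjusted limma p under 0.05, against 719.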

Additional observations from a re-analysis of the deposited data

Results flagged for a closer look

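Among 50 groups of values examined (25 measures in the 2 late groups), 2 held an array far from the others of its group by Dixon's 95% criterion, which chance exceeds in about 1 group in 20. For TC0100001206.mm.2 the TRAMP tumour T4 had 7.28, while the next lowest TRAMP tumour had 10.94. Without T4 the probe set remained called. For Dsel the TRAMP tumour T7 had 6.60, while the next lowest had 6.95. Both arrays were kept.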

How the results depend on the processing

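The late comparison called 2 probe sets, and 31 alternative settings called between 2 and 146. TC0M00000009.mm.2 was called under all 31 and both probe sets under 29. The exceptions for TC0100001206.mm.2 were the 2 settings restricted to animals of 24 and 25 weeks. The count was 7 with 1 weight per array, 72 with age as a covariate, 146 among animals of 24 and 25 weeks, and 37 among those animals with array quality as a covariate, a setting chosen after seeing the data, as was leaving out ST15 and ST16. Leaving out each of the 16 arrays gave 2 to 3 calls. With the number of the animal code as replicate block, on the 14 arrays of T1 to T7 and ST1 to ST7, 3 were called, as many as without the block on the same arrays. The labels do not say that equal numbers pair animals, deviations of same-numbered arrays correlated by -0.06 to 0.26, and 1 of the 7 TRAMP arrays correlated best with its own number. Of the 39 genes named beside lists, 29 kept their direction under every setting, and no call reversed. Sparc differed by -0.39 to -0.24 with single arrays left out and by -0.61, no longer below 0.05, among animals of 24 and 25 weeks. The SV40 control difference ran from 0.19 to 0.32 with single arrays left out and was 0.06 among animals of 24 and 25 weeks. The early count of 4 became 1 on the 13 early arrays alone and 29 with array quality as a covariate, and 1 to 6 with single arrays left out, moving by over 1.5 times without T8, T9, T11, T12, T13, T14, ST22, ST23, ST26 or ST27. The count of 50 without the transgene became 7 in late and 0 in early animals alone (limma; 1082 at an unadjusted p under 0.05), 231 with array quality as a covariate, 7 without S6 and S11, and 6 to 198 with single arrays left out, within 1.5 times only without B1, B3, B5 or S8. The 0 calls for the difference between late and early effects stayed 0 under each setting tried. The cause of these changes was not tested, beyond the fewer arrays in the restricted settings. Signal over background limits the low levels, since negative control probe sets reach 9.30 at their 95th percentile.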

Other observations

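By chromosome of the probe set identifier, an unadjusted late p under 0.05 was found for 4.75% of the 1199 probe sets of chromosome 1, 3.93% of the 1629 of chromosome 11, which holds Sparc, and 6.85% of the 219 of the Y chromosome, all 15 of the last lower in SPARC-null tumours, against 3.24% of all probe sets. Dsel, 3110009E18Rik, Zp3r and TC0100001206.mm.2 carry chromosome 1 in their identifiers.

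TRAMP tumours had the larger SD of the 2 groups for 55.6% of probe sets. Array O12, whose genotype label is SPARC-null and whose code is that of the OPN-null series, had 11.76 for TC0M00000009.mm.2 and 7.24 for Sparc and entered no comparison.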
